A study of Mus musculus with 4 samples.

Results

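Translation initiation factors bring the initiator tRNA, the small ribosomal subunit and the capped mRNA together and move the complex to the start codon. eIF1, eIF1A, eIF2 and eIF3 act on the small subunit, the eIF4 proteins recognise and unwind the capped end of the mRNA, and eIF5 and eIF5B act at start codon recognition and subunit joining. Their genes are used in almost every cell, and growth signals through mTOR act on the pathway through the eIF4E-binding proteins.

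The genes described here are the protein-coding genes of GENCODE release M21 whose symbol begins with Eif1 to Eif6, without the 4 kinases of the Eif2ak series. This gave 51 of 21938 protein-coding genes on assembled chromosomes of GRCm38 (mm10), which were placed in 9 groups by role. The question was where Foxr2, a forkhead protein, lay at these genes. Binding was read by CUT&RUN, in which an antibody tethers a nuclease that frees the DNA around a protein, with an antibody against V5.

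Foxr2 p53LOF cells came from a mouse tumor made by in utero electroporation of C57BL/6J embryos, in which a piggyBac vector expressed V5-tagged FOXR2 from a CAG promoter and CRISPR targeted Trp53, and 1 line grown as neurospheres was used in 2 replicates. The V5 control, also in 2 replicates, was from a separate electroporation model in the same strain that lacks the tag, and the labels give it the genotype H3.3G34R. The control therefore differs from Foxr2 p53LOF in its tumor model as well as in the tag, and these cannot be told apart. Nothing in the labels says that the replicates were separate cultures, so the spread between them may be technical.

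Each of the 4 libraries has its own peak list. The Foxr2 p53LOF lists hold 31909 and 38580 peaks and the control lists 308 and 124. The fold of a peak is the number of fragments at its summit plus 1 over the library's background plus 1. The recovered backgrounds were 1.26 and 2.04 fragments in Foxr2 p53LOF and 1.69 and 0.642 in the control, so a fold is read within its own library and not as an amount across libraries. Peaks were kept with a fold above 6, a −log10 q above 6, a length under 10 kb and an overlap with control peaks of less than 10 bp. Where kept peaks of the replicates overlapped, the shared stretch was called a reproducible site, and there were 11947. A promoter site lies within 1 kb of a protein-coding transcript start, and the lower of its 2 replicate folds was used to order the genes.

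Of the 51 initiation factor genes, 41 (80.4%) had a reproducible promoter site, against 39.4% of all protein-coding genes. With a lower fold of at least 10, there were 25 (49.0%) against 19.8%. In the gene body with 10 kb on either side, 44 (86.3%) had a site, against 50.0%. Each share was above that of all genes, and no test of these shares was made. Before filtering, 48 genes (94.1%) had a promoter peak in both Foxr2 p53LOF replicates, against 51.5% of all genes. In the control no initiation factor gene had a promoter peak (0 of 51), where 0.132% of all genes had one in either replicate, so a count of 0 lies near this background and the short control lists say little about single genes.

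Starts of initiation factor genes are rich in G and C, and so were promoter sites in general. The median GC content of the 1 kb around the start was 59.2% over the 51 genes and 54.9% over all genes. Among genes of at least 55% GC, 31 of 36 initiation factor genes (86.1%) had a promoter site, against 59.5% of all such genes. Below 55% GC the count was 10 of 15 (66.7%), against 19.5%. GC content was read at the most 5′ start of each gene. Eif4g1 is counted in this class, although its site lay at internal starts and not in that region. The share was thus higher than the background in both classes, and it was lower in the GC-poor class for the initiation factor genes as for all genes. Across the 41 sites the lower fold and GC content had a Spearman rho of -0.005, and across 8642 genes with a site 0.045.

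**Figure D1:**
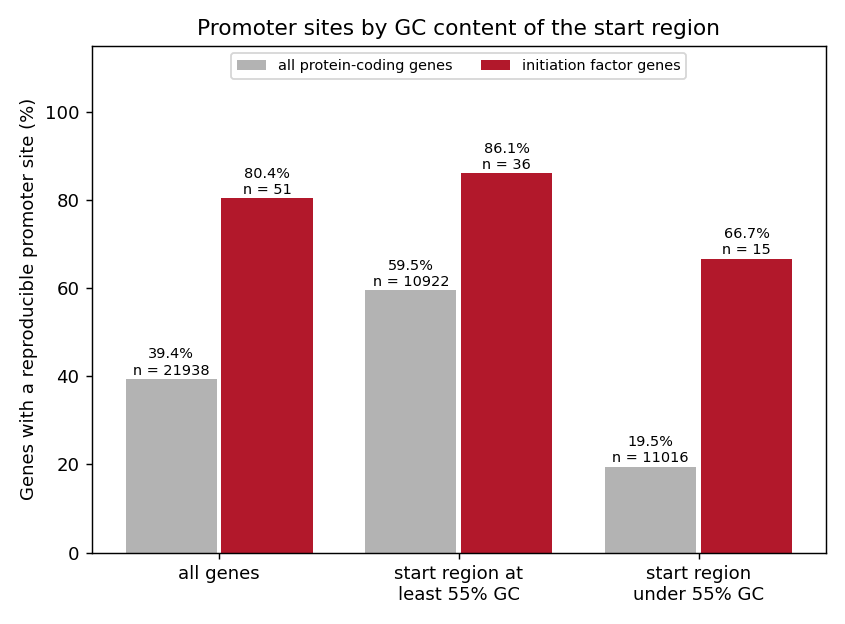
Share of genes with a reproducible promoter site (percent, vertical axis) for all genes and for genes at or above and below 55% GC in the 1 kb around the start, with all protein-coding genes in grey and initiation factor genes in red. The initiation factor bars stand at 80.4%, 86.1% and 66.7% beside 39.4%, 59.5% and 19.5%.

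Over the 41 sites the fold had a median of 12.8 in replicate 1 (range 6.19 to 33.1) and of 13.8 in replicate 2 (range 6.24 to 37.1). The lower fold had a median of 11.9 with quartiles of 8.84 and 16.8, against a median of 10.2 over all genes with a promoter site. By percentile among promoter sites they ran from 4.89 (Eif3m) to 99.3 (Eif3b), although the highest lower fold of any gene was 70.7, and 8 of them lay in the top 10 percent. These were Eif3b, Eif5b, Eif5a, Eif3d, Eif4ebp1, Eif4a1, Eif4b and Eif3a.

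**Figure D2:**
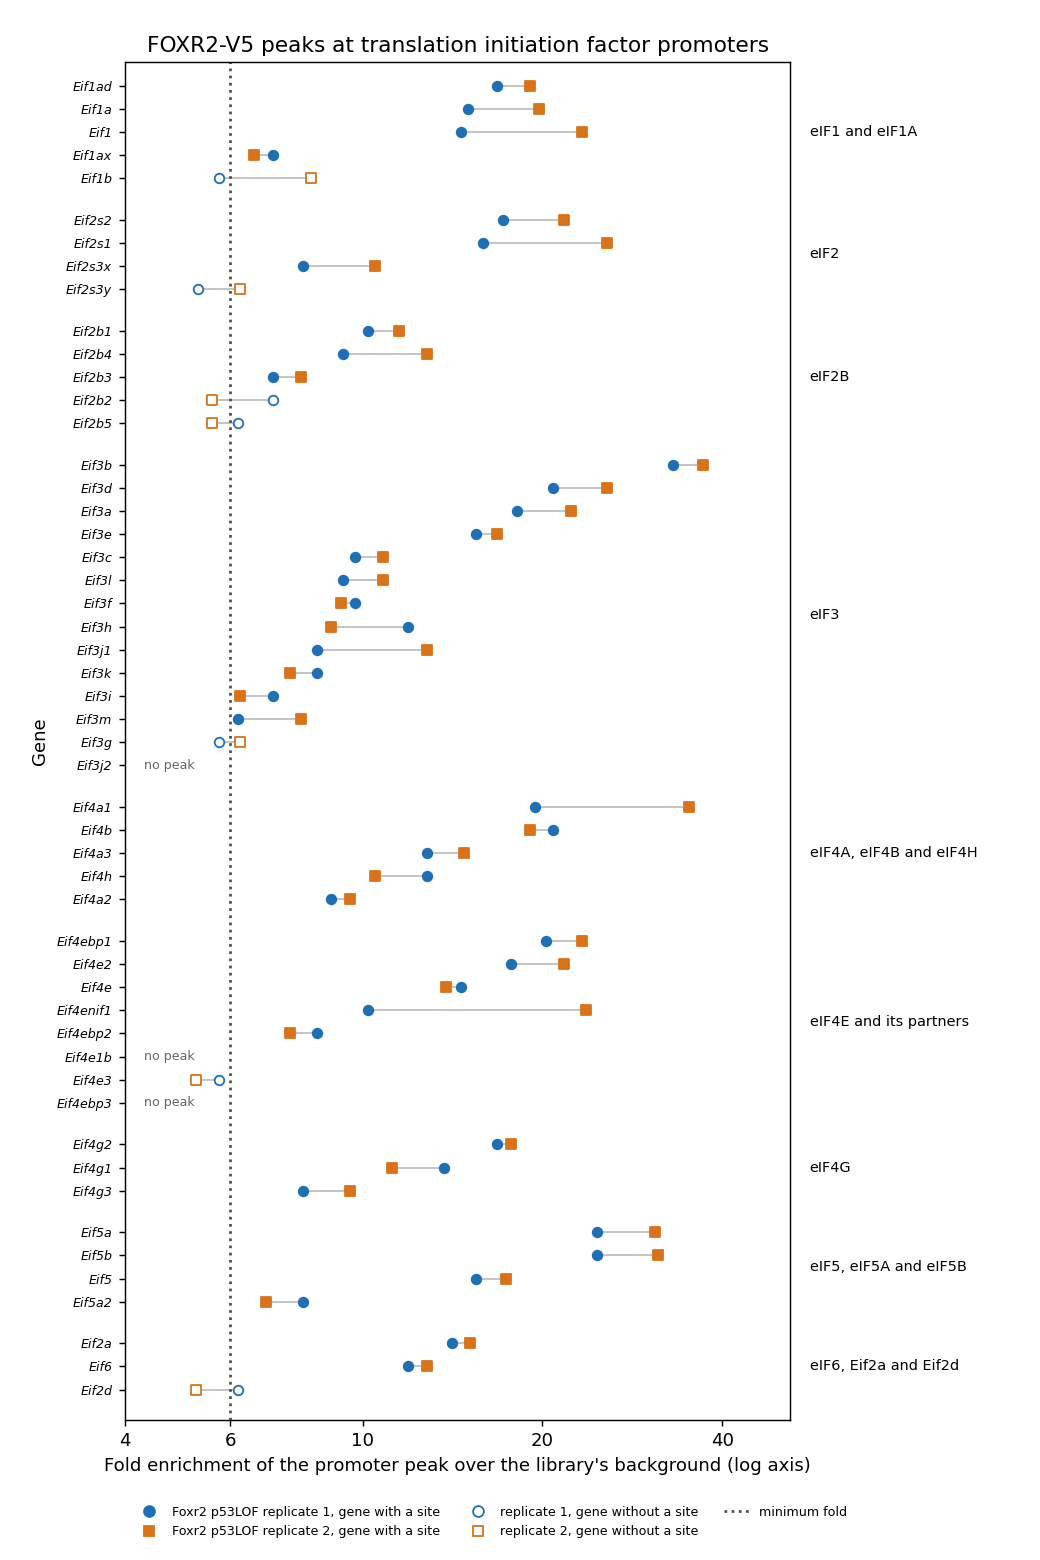
Fold enrichment of the promoter peak (log axis) for each of the 51 genes in Foxr2 p53LOF replicate 1 (circles) and replicate 2 (squares), grouped by role and ordered within a group by the lower fold, with open symbols for the 10 genes without a reproducible site and a dotted line at the minimum fold of 6. Eif3b stands highest at 33.1 and 37.1, and 3 genes have no promoter peak.

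The DNA around the replicate 1 summit is shown for the 3 highest sites and for 2 genes without a site. These mark the ends of the range of the lower fold. Eif2d and Eif4e3, at 5.26 in replicate 2, had the lowest lower fold of the genes with a promoter peak. In replicate 1 Eif2d, at 6.19, was not among the lowest, and the Eif4e3 stretch lies outside its replicate 2 peak. Each stretch is 201 bases of GRCm38.p6 centred on the summit, read 5′ to 3′ on the strand of the gene. None holds any of the motifs searched (given with the sequence results), so no base is in capitals. Eif3b lies at chr5:140418807-140419007 on the plus strand, Eif5a at chr11:69922042-69922242 on the minus strand, Eif5b at chr1:37997635-37997835 on the plus strand, Eif2d at chr1:131152938-131153138 on the plus strand and Eif4e3 at chr6:99666971-99667171 on the minus strand.
Eif3b: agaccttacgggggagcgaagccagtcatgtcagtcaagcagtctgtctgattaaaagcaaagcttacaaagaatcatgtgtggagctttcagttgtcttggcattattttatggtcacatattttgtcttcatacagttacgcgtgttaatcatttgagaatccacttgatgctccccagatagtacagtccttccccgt
Eif5a: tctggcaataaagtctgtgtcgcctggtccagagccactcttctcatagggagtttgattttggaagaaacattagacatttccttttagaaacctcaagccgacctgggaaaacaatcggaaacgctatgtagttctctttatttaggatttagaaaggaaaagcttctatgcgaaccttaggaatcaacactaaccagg
Eif5b: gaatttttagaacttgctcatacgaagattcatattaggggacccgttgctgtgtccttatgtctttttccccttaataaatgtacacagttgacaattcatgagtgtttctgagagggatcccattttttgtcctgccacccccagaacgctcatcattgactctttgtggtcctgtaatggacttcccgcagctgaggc
Eif2d: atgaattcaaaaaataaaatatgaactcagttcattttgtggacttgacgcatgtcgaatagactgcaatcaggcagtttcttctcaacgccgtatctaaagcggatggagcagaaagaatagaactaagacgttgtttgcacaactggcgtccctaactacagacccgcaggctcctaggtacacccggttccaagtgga
Eif4e3: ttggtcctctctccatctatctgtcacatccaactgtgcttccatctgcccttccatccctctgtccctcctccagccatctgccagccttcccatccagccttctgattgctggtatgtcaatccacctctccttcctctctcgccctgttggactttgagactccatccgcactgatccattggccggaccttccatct
The GC content of these stretches was 42.8% at Eif3b, 41.3% at Eif5a and 44.3% at Eif5b, and 44.3% at Eif2d and 54.7% at Eif4e3. The first 3 were thus poorer in G and C than most: over the 41 sites the summit stretches had a median of 59.2% (quartiles 49.8% and 67.7%), and over all genes with a promoter site 61.2%. At 11 of 41 sites (26.8%) the summit stretch was below 50% GC, against 17.7% of all genes with a site.

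eIF1 and eIF1A keep the scanning small subunit open and police the choice of start codon. Of their 5 genes, 4 had a site. Eif1 had folds of 14.6 in replicate 1 (32 fragments, 95% interval 10.1 to 20.4) and 23.3 in replicate 2 (70 fragments, 18.3 to 29.4), and no peak in either control replicate. Intervals here are Poisson intervals of the fragment count and cover counting error only. Its paralogue Eif1b, the other gene for eIF1, had 5.74 and 8.21 and no site, since replicate 1 was below the minimum. The Eif1 site, chr11:100318182-100324169, was the longest of the 41 at 5988 bp and ran past both ends of the gene.

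Eif1a and Eif1ax encode nearly the same eIF1A protein. Eif1a had folds of 15.0 and 19.7 at a start that lies 166 bp from the opposite-strand start of Tmed7, so its site cannot be assigned to either gene. Eif1ax, on chromosome X, had 7.07 (15 fragments) and 6.57 (19 fragments), just inside the filter in both replicates. Eif1ad, a gene for a protein with an eIF1A-like domain, had the highest lower fold of the group, with 16.8 and 19.1, at a start shared with Banf1 at 135 bp. The Eif1a and Eif1ad folds were higher than that of Eif1ax in both replicates. No control library had a peak at these starts.

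eIF2 carries the initiator tRNA, and its alpha subunit is the target of the stress kinases. Eif2s1, the alpha subunit gene, had folds of 15.9 and 25.6, with its start 181 bp from that of Atp6v1d on the opposite strand. Eif2s2, the beta subunit gene, had 17.2 and 21.7. The gamma subunit has a gene on each sex chromosome, and both were lower. Eif2s3x had 7.95 (17 fragments, interval 4.82 to 12.5) and 10.5 (31 fragments, 7.25 to 14.8). Eif2s3y had 5.30 (11 fragments) and 6.24 (18 fragments) and no site, because replicate 1 failed both the fold and the q filter, with a −log10 q of 5.52.

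Promoter sites on chromosome X were low in general. The median lower fold of promoter sites was 7.88 on chromosome X (91 sites), 11.5 on chromosome 11 and between 8.39 and 11.5 on each autosome, and chromosome Y had 0 sites among 12 and 11 peaks in the Foxr2 p53LOF lists. With each fold divided by the median of its chromosome and multiplied by the median of all promoter sites, Eif2s3x rose from 7.95 to 10.2 and Eif1ax from 6.57 to 8.76. Whether these chromosomes differ in copy number was not tested.

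eIF2B recycles eIF2 by exchanging its GDP for GTP, and mutations of its subunits cause a leukodystrophy. A site was present at 3 of 5 genes, with a lower fold of at least 10 at 1 of them, and the median lower fold was 9.28. Eif2b1 (alpha) had 10.2 and 11.5, Eif2b4 (delta) 9.28 and 12.8 and Eif2b3 (gamma) 7.07 and 7.88. The first 2 lie head to head with another gene, Eif2b1 with Gtf2h3 at 9 bp and Eif2b4 with Snx17 at 88 bp. Eif2b2 (beta) had 7.07 and 5.59, and Eif2b5, the gene of the catalytic epsilon subunit, had 6.19 and 5.59. Both passed in replicate 1 alone, and in replicate 2 each had 16 fragments where a fold above 6 needs 18.

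eIF3 is the large scaffold on the small subunit, and its 14 genes had the widest spread of any group. A site was present at 12, and 4 had a lower fold of at least 10. Eif3b, which encodes a core subunit, had the highest lower fold of all initiation factor genes. Its folds were 33.1 in replicate 1 (74 fragments, interval 26.1 to 41.5, −log10 q 97.6) and 37.1 in replicate 2 (112 fragments, 30.6 to 44.6, −log10 q 146), with no peak in the control. This placed it at percentile 99.3 of promoter sites. Its summits lay upstream, at -421 and -428 bp from the nearest start and 7 bp apart, within the site chr5:140417986-140420602.

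Eif3d, whose product can bind the mRNA cap, had folds of 20.8 and 25.6, Eif3a, the largest subunit, 18.1 and 22.3, and Eif3e 15.5 and 16.8. The other 8 sites lay below 10 in at least 1 replicate. Eif3c had 9.72 and 10.8, Eif3l 9.28 and 10.8, Eif3f 9.72 and 9.20, and Eif3h 11.9 and 8.87. Eif3k had 8.39 and 7.56, Eif3i 7.07 and 6.24 and Eif3m 6.19 and 7.88, the lowest in the list. Genes of 1 complex thus ran from 6.19 to 33.1 in lower fold. Eif3i (with Tmem234 at 32 bp) and Eif3k (with Map4k1 at 186 bp) share their start regions with a gene on the opposite strand. Eif3g had 5.74 and 6.24 and no site.

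Eif3j1 and Eif3j2 encode the loosely bound j subunit from 2 places in the genome. Eif3j1 on chromosome 2 had folds of 8.39 and 12.8. Eif3j2 on chromosome 18 had no peak in any of the 4 libraries, at its start or within 10 kb. The 2 genes are close copies, although their start regions had 67.4% GC at Eif3j1 and 46.1% at Eif3j2. Whether reads that fit both were lost in alignment was not tested, so the level at Eif3j2 is uncertain.

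The helicase eIF4A unwinds the leader of the mRNA with its helpers eIF4B and eIF4H, and all 5 genes of this group had a site. Eif4a1, the main helicase gene, had 19.4 in replicate 1 (43 fragments, interval 14.2 to 26.0) and 35.2 in replicate 2 (106 fragments, 28.8 to 42.4). These folds are each relative to their own library, and replicate 2 was the higher at most sites. The summits lay upstream, at -438 and -446 bp from the start. Its paralogue Eif4a2 had 8.84 and 9.53, and Eif4a3, which serves the exon junction complex, 12.8 and 14.8. Eif4a1 was the highest of the 3 in both replicates. Eif4b had 20.8 and 19.1 and Eif4h 12.8 and 10.5.

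eIF4E binds the cap, and the 4E-BPs hold it until mTOR phosphorylates them. Of the 8 genes for eIF4E and its partners, 5 had a site. Eif4e had folds of 14.6 and 13.8, and Eif4e2, which encodes the repressive cap-binding protein 4EHP, 17.7 and 21.7. Eif4e3 had 5.74 (12 fragments) and 5.26 (15 fragments), under the minimum in both, at a start 26 bp from that of the overlapping gene Gm20696. Eif4e1b, known from oocytes, had no promoter peak in any library.

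The binding protein genes also differed. Eif4ebp1 had the highest lower fold of the group, with 20.3 (45 fragments, interval 14.9 to 27.0) and 23.3 (70 fragments, 18.3 to 29.4). Eif4ebp2 had 8.39 and 7.56, and Eif4ebp3 had no promoter peak. The summits at Eif4ebp1 lay 739 and 776 bp inside the gene, in an intron, farther from a start than any other of the 41. Eif4enif1, whose product 4E-T moves eIF4E into the nucleus, had 10.2 (22 fragments, interval 6.53 to 15.2) and 23.7 (71 fragments, 18.5 to 29.7). This was the widest gap between replicates among the 41, with replicate 2 at 2.33 times replicate 1.

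Near Eif4enif1 lay the only control peaks within 10 kb of any initiation factor gene. They covered chr11:3183891-3200063 in control replicate 1 (fold 37.9, 101 fragments) and chr11:3184096-3200056 in replicate 2 (fold 29.8, 48 fragments), over Sfi1 and Drg1. They ended before the Eif4enif1 site, chr11:3201437-3203950, and Foxr2 p53LOF peaks under them were removed by the filter. Their part in the gap between replicates at Eif4enif1 was not tested.

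eIF4G links the cap-binding protein, the helicase and eIF3, and all 3 genes had a site. Eif4g2, which encodes the cap-independent factor DAP5, had 16.8 and 17.7, Eif4g1 13.7 and 11.2, and Eif4g3 7.95 and 9.53. At Eif4g1 the site, chr16:20672062-20673821, lay at internal transcript starts and not at the most 5′ one, so it was lost when only the most 5′ start of each gene was used. The site at Eif4g3 was the shortest of the 41, at 662 bp.

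The eIF5 group had the highest median lower fold, 20.1, with a site at all 4 genes. Eif5b, the GTPase that joins the subunits, had 24.7 (55 fragments, interval 18.7 to 32.1) and 31.2 (94 fragments, 25.3 to 38.1). Eif5a, whose product carries hypusine and helps elongation and termination, had 24.7 (55 fragments) and 30.9 (93 fragments). Eif5, the GTPase activator of eIF2, had 15.5 and 17.4. Eif5a2, the paralogue of Eif5a, had 7.95 and 6.90, and its intervals did not overlap those of Eif5a in either replicate. The start of Eif5b lies 117 bp from that of Txndc9 on the opposite strand, so this site cannot be assigned to Eif5b alone.

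The last group holds eIF6, which keeps the large subunit apart, and the genes of the alternative tRNA carriers Eif2a and Eif2d. Eif6 had 11.9 and 12.8. Eif2a had 14.1 and 15.1, at a start 71 bp from that of Serp1 on the opposite strand. Eif2d had 6.19 (13 fragments) and 5.26 (15 fragments) and no site, the lowest count that can pass in replicate 1 and too few in replicate 2.

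Of the 10 genes without a promoter site, 7 still had a promoter peak in both replicates. Eif1b, Eif2s3y and Eif3g passed in replicate 2 only, Eif2b2, Eif2b5 and Eif2d in replicate 1 only, and Eif4e3 in neither. The folds of these 7 ran from 5.26 to 8.21 and those of the lowest sites began at 6.19, so the line between them is a matter of a few fragments. With no minimum fold 47 genes had a site, against 43.2% of all genes. Eif3j2, Eif4e1b and Eif4ebp3 had no promoter peak to filter, and their start regions had 46.1%, 50.9% and 48.9% GC. Start regions of like GC content also held sites, as at Eif5a (48.4%) and Eif4e (50.8%). Whether GC content bears on these peaks was not tested.

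Within several pairs of paralogues the folds differed. In Eif1 and Eif1b, Eif1a and Eif1ax, Eif4a1 and Eif4a2, Eif4ebp1 and Eif4ebp2, and Eif5a and Eif5a2, the first gene had the higher fold in both replicates. The counting intervals of Eif1a and Eif1ax overlapped in replicate 1, at 10.5 to 20.9 and 4.15 to 11.4. Those of the other pairs just named did not overlap in either replicate. The Eif1a site is shared with Tmed7, and Eif1ax lies on chromosome X, where folds were low. Other paralogues did overlap. For Eif2s3x and Eif2s3y the intervals were 4.82 to 12.5 and 2.87 to 9.14 in replicate 1, and 7.25 to 14.8 and 3.83 to 9.67 in replicate 2. Those of Eif4e and Eif4e2, and of Eif4g1 and Eif4g3, also overlapped in both replicates.

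The order of the genes was similar in the replicates. Replicate 2 had the higher fold at 30 of 41 sites (73.2%), close to the 75.1% over all genes with a site. The folds had a Spearman rho of 0.891 across the 41 genes and 0.826 across all 8642, which is a description across genes of the same 2 libraries. Replicate 2 was over 1.5 times replicate 1 at Eif1, Eif2s1, Eif3j1, Eif4a1 and Eif4enif1. Replicate 1 was the higher at 11 genes, most at Eif3h, with a ratio of 0.744.

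**Figure D3:**
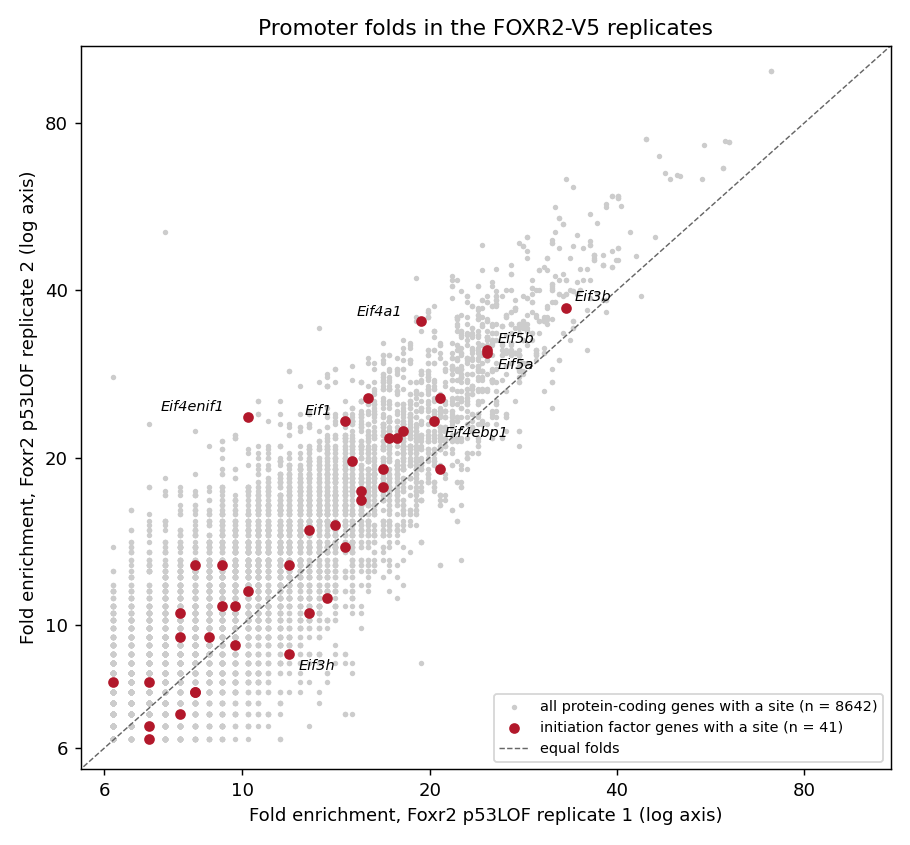
Fold enrichment at the promoter site in Foxr2 p53LOF replicate 1 (horizontal, log axis) and replicate 2 (vertical, log axis), with the 41 initiation factor genes in red over all 8642 protein-coding genes with a site in grey and a dashed line of equal folds. Red points follow the grey cloud, and among the red points Eif4enif1, at 10.2 and 23.7, stands farthest above the line.

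The sites lay over the starts. All 41 covered a protein-coding transcript start of their gene, at Eif4g3 a later one, since the site began 13 bp past the first. The replicate 1 summit was a median of 201 bp from the nearest one, against 208 bp over all genes with a site. It was within 200 bp at 20 of 41 genes (48.8%, all genes 48.3%) and downstream of the start at 24 (58.5%, against 4752 of all 8642). By annotation it fell upstream of the gene at 15 (36.6%, all genes 35.0%) and in an intron at 10 (24.4%, all genes 29.8%). It fell in a coding exon at 8 (19.5%, all genes 11.3%) and in an untranslated exon at 8 (19.5%, all genes 23.6%). The distance to the start was thus close to that at promoter sites in general, and no test of the shares by annotation was made.

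Site length had a median of 2102 bp, against 1909 bp over all genes with a site. The 6 sites of at least 4 kb were at Eif1, Eif1a, Eif4a1, Eif4b, Eif4e and Eif5a, and the 3 under 1 kb at Eif1ax, Eif3i and Eif4g3. Summits of the replicates were a median of 87 bp apart and at most 651 bp apart, the latter at Eif3k.

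**Figure D4:**
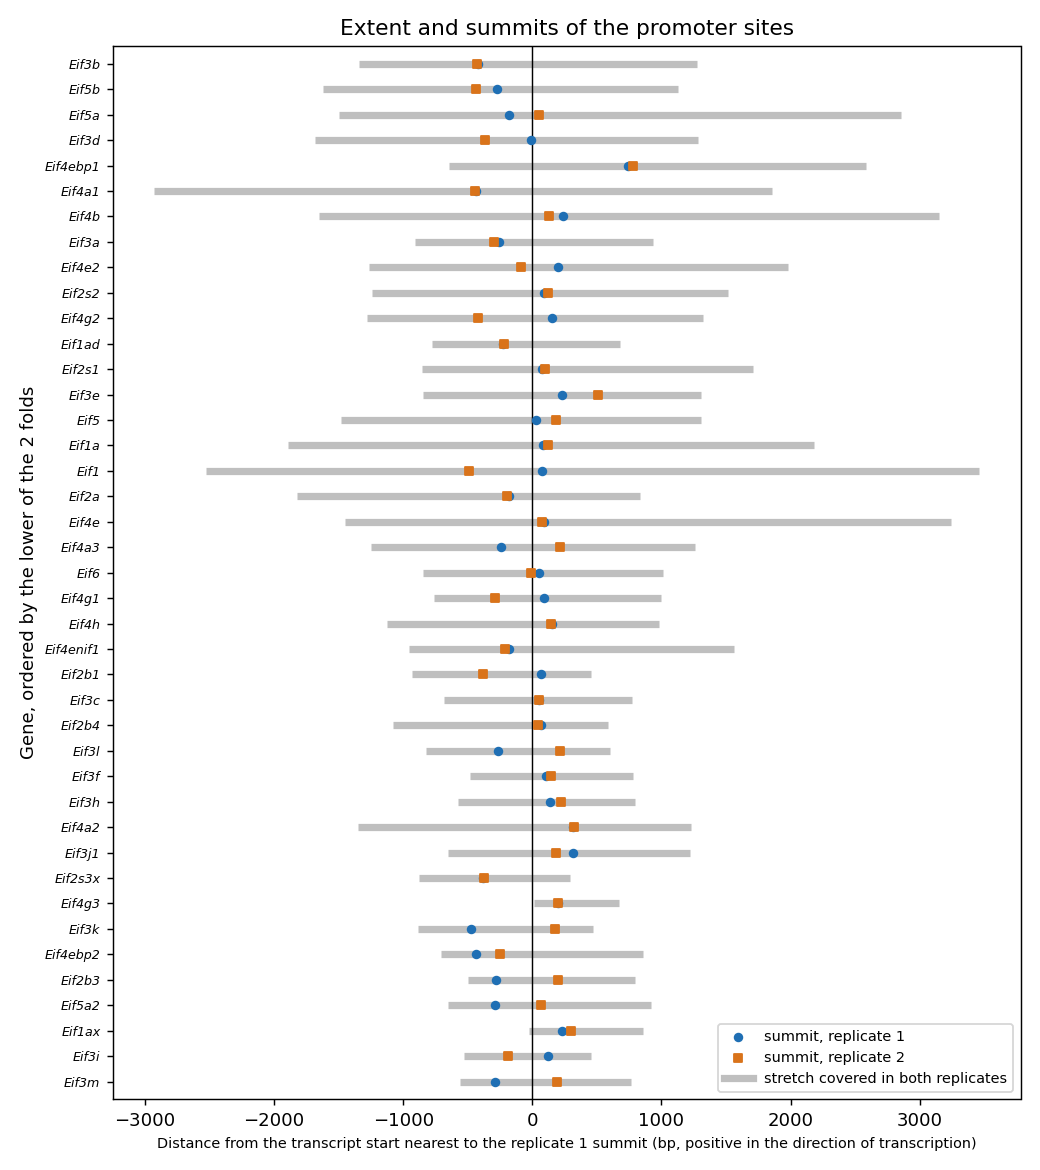
Stretch covered by kept peaks of both replicates (grey bars) and the summits of replicate 1 (circles) and replicate 2 (squares) at the 41 promoter sites, as distance in bp from the transcript start nearest to the replicate 1 summit, ordered by the lower fold. All bars but that of Eif4g3, which begins at 13 bp, cross the start at 0, and the Eif4ebp1 summits lie farthest inside, at 739 and 776 bp.

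Some starts face another gene. Of the 51 genes, 9 (17.6%) had the start of an opposite-strand protein-coding gene within 1 kb, against 11.4% of all genes, and all 9 had a promoter site, against 80.3% of all such genes. Of the 42 without such a neighbour 32 (76.2%) had a site, against 34.1% of all genes without one. The share with a site was thus above that of all genes in both classes.

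Away from the starts of initiation factor genes, 18 further sites lay in the bodies or 10 kb flanks of 15 genes, and 16 of these were at the start of another gene. Some were stronger than the gene's own promoter. At Eif3g, which has no promoter site, a site with folds of 18.6 and 25.3 lay at the start of Ppan, and at Eif5a2 one of 15.9 and 14.5 lay at Rpl22l1, which encodes a ribosomal protein-like factor. At Eif4b the site at Tns2 had 24.7 and 26.3, above the 20.8 and 19.1 at Eif4b. The genes that had a site only through such a neighbour were Eif3g (Ppan), Eif4e1b (Tspan17) and Eif2b5 (Dvl3), the last with 7.95 and 7.23.

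The remaining 2 sites were at no annotated protein-coding start. One lay downstream of Eif3l at chr15:79101151-79102277, with folds of 11.0 and 11.5, and the other downstream of Eif3i at chr4:129584647-129585769, with 6.19 and 11.5. All other reproducible sites around these genes were thus at gene starts, their own or a neighbour's.

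RefSeq promoter sequence, 250 bases before to 50 after the start in GRCm38.p6, was matched by symbol for 39 of the 51 genes. Eif1a, Eif2b3, Eif3e, Eif3h, Eif3i, Eif3j2, Eif4e1b, Eif4e3, Eif4ebp1, Eif4ebp3, Eif4g2 and Eif6 were not matched. Both strands were searched for 5 motifs, none of which contains another as spelled, although CACGTG and TGACGTCA share letters. CCGGAAG, the core bound by ELK-type ETS factors, was in 13 of 39 (33.3%), against 12.4% of 16522 promoters. CACGTG, the E-box of MYC and USF, was in 8 (20.5%), against 8.09%. GCATGCGC (NRF1) was in 3 (7.69%, against 3.77%). ATGGCGGC (YY1) was in none (against 3.32%), nor was TGACGTCA (CRE, against 2.42%). Of the 33 matched promoters at initiation factor genes with a site, 10 held the ETS core, 7 the E-box and 3 the NRF1 motif. Over the 6853 promoters of all genes with a site, the shares of these motifs were 21.3%, 11.0% and 6.51%. Those of the YY1 and CRE motifs were 6.22% and 3.90%.

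The ETS core was present at genes across the range of folds, from Eif3d at 20.8 to Eif3m at 6.19, and at Eif1b, Eif2b2 and Eif3g, which have no site. Short stretches around it are shown from both ends of that range, with the motif in capitals on the strand of the gene (CTTCCGG where it is reversed). Eif3d lies at chr15:77970876-77970906 (minus strand), Eif4e2 at chr1:87213904-87213934 (plus), Eif1ad at chr19:5366822-5366852 (plus), Eif3m at chr2:105017064-105017094 (minus), Eif2b2 at chr12:85219485-85219515 (plus) and Eif3g at chr9:20898616-20898646 (minus).
Eif3d: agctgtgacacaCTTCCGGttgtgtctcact
Eif4e2: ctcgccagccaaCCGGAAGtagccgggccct
Eif1ad: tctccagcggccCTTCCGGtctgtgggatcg
Eif3m: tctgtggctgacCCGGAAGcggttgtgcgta
Eif2b2: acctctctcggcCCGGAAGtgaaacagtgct
Eif3g: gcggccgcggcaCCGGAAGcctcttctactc
The motif began 70 bases before the RefSeq start at Eif3d and 55 before it at Eif3m. The copies shown for Eif4e2, Eif1ad and Eif2b2 lay within the transcribed part, and Eif1ad had another copy at -157 bases from the RefSeq start. A match describes the letters and does not show that a factor was bound.

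The E-box was found at Eif1b, Eif3a, Eif3f, Eif3k, Eif4a1, Eif4h, Eif4g1 and Eif5a2. It is shown for Eif4a1 at chr11:69672595-69672624 (minus), Eif3a at chr19:60790654-60790683 (minus), Eif4h at chr5:134639488-134639517 (minus) and Eif3f at chr7:108934335-108934364 (plus), with CACGTG in capitals.
Eif4a1: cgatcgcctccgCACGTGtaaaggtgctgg
Eif3a: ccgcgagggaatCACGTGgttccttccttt
Eif4h: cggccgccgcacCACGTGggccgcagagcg
Eif3f: caagatatgattCACGTGgtataaatttag
Motifs were also searched around the replicate 1 summits, which can lie outside these 300 bases. The shares of the ETS core and the E-box were lower there. This window is shorter and the genes are not the same, so these searches cannot be compared. In 201 bases centred on the summit CCGGAAG was at 4 of 41 sites (9.76%), those of Eif3c, Eif3d, Eif3e and Eif4a1, against 5.84% of all genes with a site. CACGTG was at Eif3e and Eif3h (4.88%, against 5.03%), and ATGGCGGC was at Eif4g1 (2.44%, against 3.19%). GCATGCGC and TGACGTCA were at none of the 41 (against 0.984% and 0.324%). TGTTTAC, a forkhead core that was added after the other motifs had been counted, was at Eif2b1 alone (2.44%, against 1.65%). No test of these shares was made, and those at the summits rest on at most 4 genes each.

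Other genes of the pathway also had sites. Of 19 initiation partners, all had a promoter site, 13 with a lower fold of at least 10, and their median lower fold was 10.6. The highest were Larp1, which holds mRNAs of the translation machinery, at 30.5 and 26.3, and Pabpc1, the poly(A)-binding protein, at 29.6 and 31.2. Of 12 elongation and termination genes 10 had a site (median 14.1), with Eef1d at 28.3 and 32.5, and Eef1a2 and Gspt2 had no promoter peak. Of the 6 genes for eIF2 alpha kinases and phosphatase subunits 5 had one, led by Ppp1r15b, a phosphatase subunit that reverses eIF2 phosphorylation, at 50.4 and 64.1. These shares too stand beside the 39.4% of all protein-coding genes.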

How the data were processed

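V5 CUT&RUN peaks were taken from 4 lists, 2 of Foxr2 p53LOF and 2 of the V5 control, grouped by the sample labels. Per the submitters' processing notes and the methods of the study, the authors trimmed reads with Trimmomatic 0.39, aligned them to mm10 with BWA 0.7.17, removed duplicates with Picard 2.26.6 and called peaks per library with MACS2 2.2.7.1. The deposited fold (signalValue) is a ratio of summit fragments plus 1 to background plus 1. The deposited peak significance, as −log10 of a p and of a q, came from MACS2 as run by the authors on 1 library at a time. The last column, the summit offset, was deposited in bp.

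The background was recovered as the value at which folds up to 30 become whole fragment numbers (tolerance 0.02) with the Poisson p that the list gives, and it was tested on simulated data together with the filters and the building of sites. A fold above 6 needs 13 and 18 fragments in the Foxr2 p53LOF libraries and 16 and 9 in the control. The read totals are not shown by a peak list, so the fragments at the summit set the precision, given as 95% exact Poisson intervals.

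Filters followed the study, without its intersection with ATAC peaks, which was not repeated, so the sites here are not limited to open chromatin. Each gene took its promoter site with the highest lower fold. Starts and exons came from GENCODE M21 and promoter sequence from RefSeq (GRCm38.p6). No p-value was computed. The rule for values covered the highest and lowest gene of each role group, genes without a site and genes on X or Y. It also covered paralogues and genes with a site away from their start. Both folds were given for these where there was a peak, and fragments or intervals for only some of them. The rule asked for promoter sequence of the 3 highest genes and of 2 without a site. Showing summit stretches, and taking the 2 genes with the lowest lower fold, were choices made after values were seen, as was the choice of motif stretches. The genes and lists were chosen with earlier results of these data known. Alternatives covered the control overlap, the q, fold and length limits, the shared overlap, the promoter and gene windows, scaling by chromosome and leaving out each library. Python 3.11.15, numpy 2.4.6, pandas 2.3.3 and scipy 1.17.1 were used.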

Additional observations from a re-analysis of the deposited data

How the results depend on the processing

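The number of initiation factor genes with a promoter site moved most with the minimum fold: 25 at a minimum of 10, where 19.8% of all genes had a site, and 47 with no minimum. The median lower fold was 10.2 with no minimum fold, 15.9 at a minimum of 10 and 13.8 at a minimum −log10 q of 10, where Eif1ax, Eif2b3, Eif3i and Eif3m were lost. Leaving out each library in turn gave medians from 11.9 to 12.8. Without either Foxr2 p53LOF replicate 44 genes had a site, and the share of all genes rose as well, to 43.7% without replicate 1 and 42.0% without replicate 2. The same 41 genes had a site with no control removal, a control overlap of 1 bp, no length limit, an overlap of 0.5 of the shorter peak, promoter windows of 500 bp or 2 kb, summits required in the window, or either control library left out. With the most 5′ start only, Eif4g1 was lost. Scaling by chromosome moved 15 of 41 folds by more than the SD of their replicates, and Eif2s3x (10.2) and Eif2b4 (10.7) rose past 10 while Eif4enif1 (8.66) fell under it. No paired analysis was possible because Foxr2 p53LOF and the control are from separate models and the labels pair none of their replicates. No initiation factor gene had a promoter peak in the control, so there was also no control fold to set beside it. Peaks near the minimum rest on 13 to 20 fragments, which limits the precision of calls there.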

Other observations

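Ppp1r15b, whose product directs the phosphatase of eIF2 alpha, had a higher fold than any initiation factor gene, at 50.4 and 64.1, while Ppp1r15a, the stress-induced counterpart, had 7.95 and 9.20. Of the kinases of eIF2 alpha, Eif2ak1 had 15.9 and 13.8, Eif2ak3 9.72 and 16.8 and Eif2ak4 10.6 and 7.88, and Eif2ak2, the kinase activated by double-stranded RNA, had no promoter site. Among elongation factors the neuronal and muscle form Eef1a2 had no promoter peak where Eef1a1 had 14.6 and 17.4. Their start regions had 59.4% and 47.8% GC, and a link between GC content and these peaks was not tested.

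Among genes of mTOR signalling, Mtor had folds of 9.28 and 8.21, Rptor 7.07 and 10.5, Rps6kb1 15.0 and 20.4 and Rps6kb2 8.84 and 11.2, beside 20.3 and 23.3 at Eif4ebp1 and 8.39 and 7.56 at Eif4ebp2. The retrogene Gspt2 on chromosome X had no promoter peak, where its autosomal parent Gspt1 had 11.5 and 15.1.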
